A study of Homo sapiens with 20 samples.

Results

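DNA repair and damage checkpoint genes were followed through the differentiation of HepaRG cells, a human hepatoma cell line whose progenitors give rise to hepatocyte-like and biliary-like cells in culture. The 34 genes described here were fixed by symbol, and their measurements are all probes of the array whose RefSeq accession maps to one of these symbols. They comprise 14 genes of homologous recombination, 11 Fanconi anemia genes, 6 genes of the damage checkpoint and 3 genes of mismatch or base excision repair, among 22214 genes tested in all. They are covered by 46 probes, 45 of which passed a filter on dim signals (for at least 1 condition, each of its 4 arrays had to be well above background), and each of the 34 genes kept at least 1 probe.

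RNA was hybridised to 20 one-color Agilent arrays, 4 for each of 5 conditions, from 4 experiments that the study calls independent. D4 cells are progenitors 4 days after seeding, and D15 cells were cultured to day 15, both without dimethyl sulfoxide (DMSO), a solvent used to promote hepatocyte differentiation. D30 − DMSO and D30 + DMSO cells were cultured to day 30 without DMSO or with 2% DMSO from day 15 onwards, and D34 ± DMSO cells received DMSO from day 15 to day 30 and were then kept for 4 days without it. All conditions come from the same unedited line, and no cells were kept in DMSO up to day 34. The removal of DMSO and the 4 additional days of culture can therefore not be told apart.

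Homologous recombination repairs double-strand breaks and broken replication forks by copying an intact sister chromatid, and it is therefore active mainly in cells that replicate their DNA. The Fanconi anemia proteins recognise interstrand crosslinks through a core complex, which ubiquitinates the FANCD2–FANCI pair and hands the lesion over to recombination. Kinases of the checkpoint, ATM and ATR with their effectors CHEK2 and CHEK1, delay the cell cycle while damage persists. Base excision repair removes single faulty bases, and mismatch repair corrects mispaired bases. Most hepatocytes of the adult liver do not divide, and progenitors in culture do.

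Values are the processed signals of the scanner files, scaled to a common 75th percentile and given in intensity units. Changes are log2 differences of condition means with their standard error (SE) from a limma fit over all 20 arrays (n = 4 arrays per condition). A gene is said to fall or rise only when its Benjamini-Hochberg adjusted p was below 0.005 and its change more than 2-fold. Between 61.1% and 74.2% of the spots of an array were well above background. RNA was measured, not protein or repair activity. The signals of PMS2, CHEK2 and FANCD2 are uncertain in that these genes have near-identical pseudogene copies whose RNA could bind the same probes. The arrays lie on 4 slides scanned in 2 sessions, and every slide holds arrays of several conditions. Hepatocyte markers were well above background on all arrays from D15 onwards (8 of 8), and at D4 the marker HNF4A was not on any array. EPCAM of the biliary and progenitor markers, HBB of blood and PDGFRB of stellate cells were not well above background on any array. Other markers of these lists were on all arrays of every condition. They were 5 of 6 biliary and progenitor markers, 3 of 4 stellate or fibroblast markers and 2 of 4 blood markers, and of endothelial markers 1 of 3 was.

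**Figure D1:**
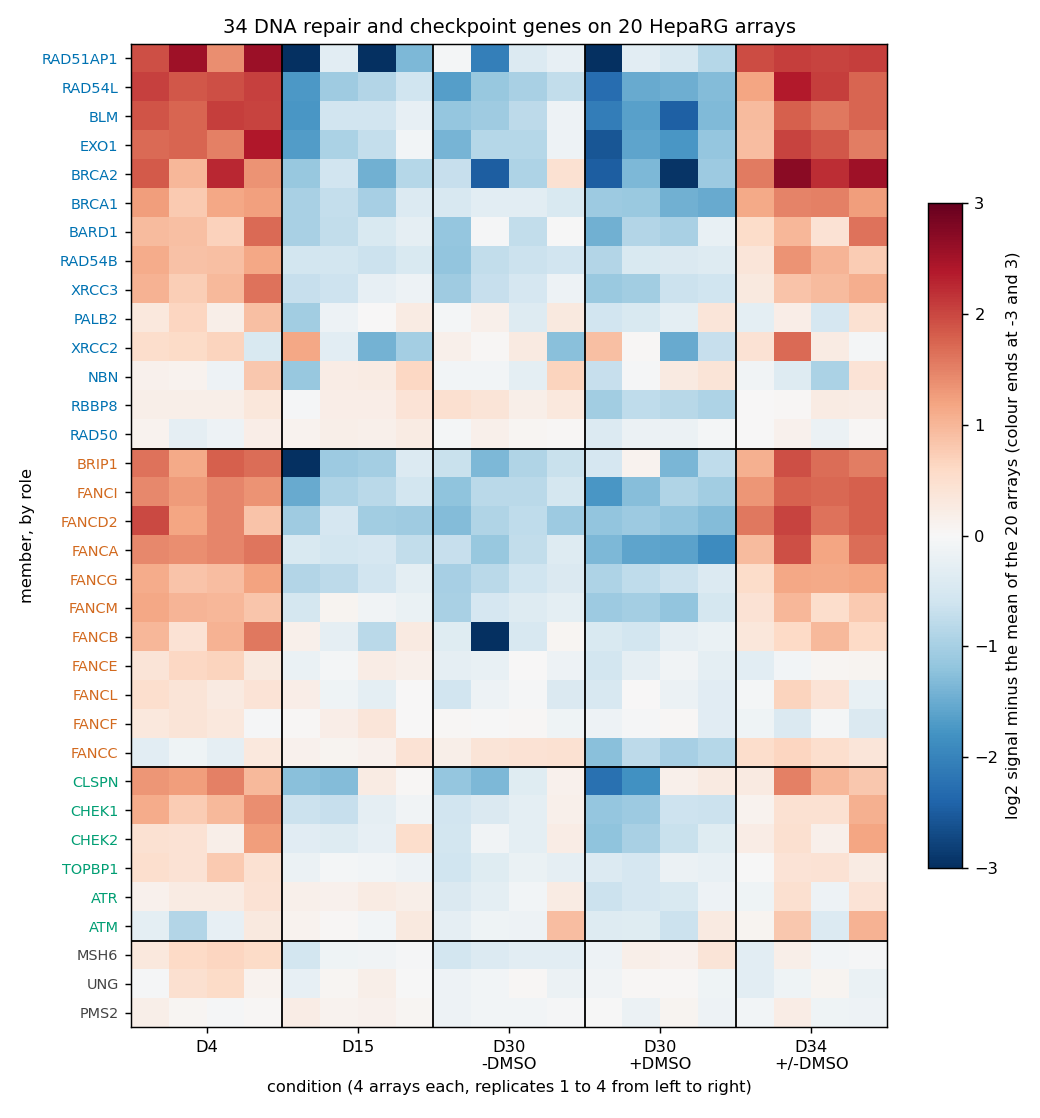
Heat map of the 34 genes (rows, ordered by role and by their change at D15) on the 20 arrays (columns, 4 per condition). Colour gives the log2 signal minus the mean of the gene over the 20 arrays, from -3 to 3. The upper rows of the recombination and Fanconi blocks are red at D4 and D34 ± DMSO and blue at D15 and at both D30 conditions, and the rows of MSH6, UNG and PMS2 stay pale throughout.

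To ask how the repair and checkpoint genes behave when progenitors leave the proliferative stage, D15 was compared with D4. Of the 34 genes, 16 fell and 0 rose (limma; by the methods' t-test 11 and 0), whereas 3.83% of all genes tested fell and 5.72% rose. The genes that fell were 9 of the 14 recombination genes, 6 of the 11 Fanconi genes and the checkpoint kinase CHEK1, and 0 of the 3 mismatch and base excision genes. The median change of the 34 genes was -1.18 on the log2 scale, against 0.02 for all genes. At an unadjusted p below 0.05, 24 of the 34 genes were lower and 0 higher, against 32.8% of all genes in either direction. On the same arrays all 14 proliferation markers fell, with a median change of -2.89, and all 8 hepatocyte markers rose. Of the 3 stellate or fibroblast markers tested, LUM and COL1A1 fell, by 2.30 and 1.93 on the log2 scale, and the summed signal of that list went from 9726 to 18480 units over the D4 arrays to 3682 to 7015 units over the D15 arrays. The part of these marker changes in the result was not tested, and in bulk RNA fewer cycling cells and less RNA per cell cannot be told apart.

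Among the recombination genes, RAD54L, a motor protein that remodels the recombination filament, gave signals of 534, 470, 496 and 534 units in D4 replicates 1 to 4 and of 39.2, 62.3, 70.8 and 85.5 units at D15. Every D15 array lay far below every D4 array. RAD54L fell by 3.03 ± 0.28 (SE) on the log2 scale (limma adjusted p = 1.31e-07).

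RAD51AP1, which stimulates strand invasion, read 43.1, 66.4, 29.5 and 67.2 units at D4 and -4.35, 9.06, 0.908 and 4.41 units at D15. It was well above background on all 4 arrays of D4 and on none of D15, and values under 1 unit were set to 1 before the logarithm was taken. Its fall was therefore at least 6.08-fold (limma adjusted p = 0.000145). The call was lost with normexp background correction, where RAD51AP1 changed by -0.76, and by the methods' t-test (adjusted p = 0.0199).

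BRCA2, the protein that loads the recombinase onto single-stranded DNA, read 27.1, 15.3, 36.9 and 19.4 units at D4 and 3.50, 5.12, 2.81 and 4.18 units at D15. Of the 4 arrays of D4, 3 were well above background for this gene, and none of D15 was. The fall was at least 3.35-fold (limma adjusted p = 0.000607), and with normexp background correction it did not pass the thresholds. BRCA2 and FANCB passed the filter on dim signals only through D34 ± DMSO.

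The other recombination genes that fell were BLM, a helicase that dissolves joint molecules, EXO1, a nuclease that resects DNA ends, BRCA1 and its partner BARD1, the RAD54L paralog RAD54B, and XRCC3, a protein that helps to assemble the recombination filament. Their changes ranged from -2.71 for BLM to -1.52 for XRCC3. BRCA1 itself read 378, 271, 350 and 368 units at D4 and 80.6, 96.6, 79.3 and 119 units at D15. It fell by 1.87 ± 0.16 on the log2 scale (limma adjusted p = 4.28e-08). PALB2, which links BRCA1 to BRCA2, changed by -0.75 ± 0.28 with overlapping arrays (limma adjusted p = 0.0647) and did not pass.

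RBBP8, whose protein starts the resection of broken ends and had the smallest change of the recombination genes, read 878, 878, 883 and 974 units at D4 and 761, 898, 890 and 1032 units at D15. The groups overlapped, and the change was -0.02 ± 0.12 (95% interval -0.27 to 0.23). The change of RAD50 was 0.21 and that of NBN, its partner in the end-binding complex, was -0.23 (95% interval -0.99 to 0.53), and neither passed. XRCC2 changed by -0.72 ± 0.56, with D15 arrays between 42.4 and 257 units, so that its interval from -1.90 to 0.47 leaves a large fall undetectable at this spread.

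Among the Fanconi genes, BRIP1, a helicase that binds BRCA1, read 43.9, 31.1, 48.8 and 45.4 units at D4 and 0.344, 6.67, 6.98 and 10.6 units at D15. It was well above background on no array of D15, and its fall was at least 4.83-fold (limma adjusted p = 0.00011). BRIP1 passed the filter on dim signals only through D4 and D34 ± DMSO, where it was high, so its calls are partly selected by that filter. BRIP1 did not pass when only the arrays of D4 and D15 were fitted, with normexp background correction or by the methods' t-test.

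FANCD2 read 267, 154, 188 and 123 units at D4 and 32.6, 47.8, 33.0 and 32.7 units at D15. Its partner FANCI, with which it forms the ubiquitinated clamp, read 728, 641, 738 and 680 units and then 93.3, 140, 151 and 181 units. In both genes all D15 arrays lay below all D4 arrays. FANCD2 fell by 2.29 ± 0.20 and FANCI by 2.34 ± 0.21 on the log2 scale (limma adjusted p = 8.55e-08 and 1.03e-07).

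Of the 8 core complex genes measured, counting FANCM, 3 fell. FANCA, which binds FANCG within the complex, read 187, 179, 189 and 207 units at D4 and 49.8, 46.4, 47.9 and 41.0 units at D15. It fell by 2.05 ± 0.19 (limma adjusted p = 2.16e-07), FANCG fell by 1.65 ± 0.18, and FANCM, the translocase that anchors the complex to DNA, fell by 1.18 ± 0.18. FANCB (-1.17 ± 0.54), FANCE (-0.46 ± 0.14), the ubiquitin ligase FANCL (-0.45 ± 0.18), FANCF (-0.09 ± 0.14) and FANCC (0.30 ± 0.15) did not pass. FANCF, the Fanconi gene with the smallest change by the probe used for each gene, read 1553, 1634, 1535 and 1205 units at D4 and 1279, 1435, 1593 and 1244 units at D15, and these arrays overlapped. The second probe of FANCF was higher on every D15 array (884 to 1094 units) than on any D4 array (735 to 765 units), by 0.43 ± 0.11 (limma adjusted p = 0.00512), which is less than 2-fold, so the probes of FANCF disagree at this step.

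In the checkpoint group, CHEK1, the effector kinase of ATR, read 268, 208, 243 and 327 units at D4 and 79.0, 76.7, 102 and 114 units at D15. No D15 array reached the lowest D4 array, and the gene fell by 1.49 ± 0.22 (limma adjusted p = 4.1e-05). CLSPN, the adaptor that brings CHEK1 to ATR, changed by -1.83 ± 0.52 with 2 of 4 D15 arrays well above background, and its limma adjusted p of 0.014 missed the threshold. CLSPN passed with the slide as a block (limma adjusted p = 0.00129). TOPBP1, the activator of ATR, was lower on every D15 array than on any D4 array, but its change of -0.66 ± 0.13 was less than 2-fold.

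The apical kinases did not pass. ATR read 677, 735, 737 and 831 units at D4 and 683, 672, 739 and 698 units at D15, a change of -0.09 ± 0.17 (95% interval -0.45 to 0.27). ATM changed by 0.37 ± 0.32, and CHEK2, the effector of ATM, by -0.69 ± 0.28 (limma adjusted p = 0.496 and 0.0855). The second probe of CHEK2 changed by -1.30 ± 0.37, more than 2-fold, and did not pass either (limma adjusted p = 0.0145). PMS2, a subunit of the mismatch endonuclease, read 564, 521, 490 and 507 units at D4 and 582, 534, 548 and 520 units at D15, a change of 0.07 ± 0.11. The mismatch sensor MSH6 lay lower on all D15 arrays, by 0.74 ± 0.15 on the log2 scale and thus less than 2-fold, and UNG, which removes uracil from DNA, changed by -0.28 ± 0.14.

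**Figure D2:**
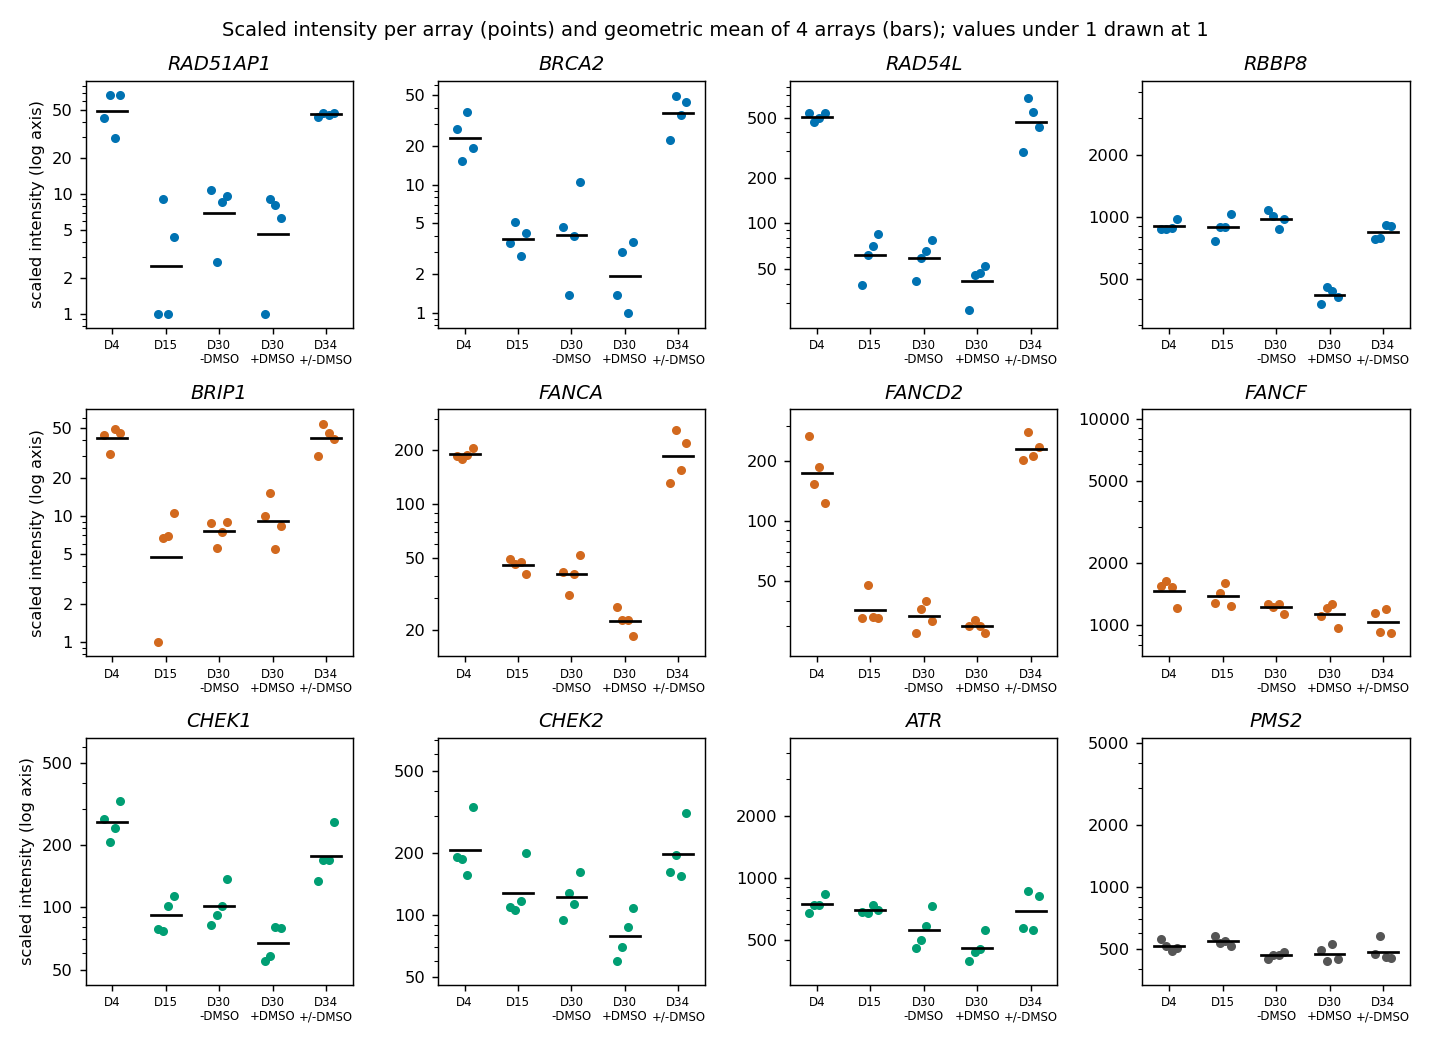
Scaled intensity of 12 genes on each array (points, log axis) with the geometric mean of the 4 arrays of a condition (bars), for 4 recombination genes (blue), 4 Fanconi genes (orange), 3 checkpoint genes (green) and PMS2 (grey). RAD54L, FANCA and FANCD2 lie high at D4 and D34 ± DMSO with no overlap with the conditions between them, whereas RBBP8 is low at D30 + DMSO alone.

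The 16 genes that fell were also described slide by slide. They were called from these same arrays, so their direction within a slide was largely fixed and is no separate support. The slides 2, 3 and 4 hold arrays of both D4 and D15, and within each of them the 16 genes were all lower at D15, by log2 differences from -5.46 to -1.67 on slide 2, from -2.99 to -0.92 on slide 3 and from -5.00 to -0.97 on slide 4. With the slide as a block 17 of the 34 genes fell.

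Since many of the 34 genes fell together, their RefSeq promoter windows (GRCh38.p14, 250 bases before to 50 bases after the start of the gene) were searched on both strands for E2F elements (TTTCCCGC, TTTGGCGC or TTTCGCGC), the cell cycle homology region (TTTGAA or TTCGAA) and the CCAAT box. No element contains another. E2F factors drive genes of the S phase, and the other elements are common in promoters of genes used late in the cycle. Windows were at hand for 31 of the 34 genes, and FANCI, NBN and RAD54B were not matched. CCAAT stood in the windows of 8 of the 14 genes that fell at D15 and 8 of the 17 that did not, against 36.7% of the windows of tested genes. An E2F element stood in 2 of the 14 and 5 of the 17 windows, against 4.42%, and the cell cycle homology region in 1 and 2 windows, against 12.1%. These are matches of letters and not measured binding sites, and a window without a match says only that these letters are not in it.

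The 250 bases before the start are shown for the genes with most matches among those that fell, XRCC3 and BRIP1, for FANCC, which did not fall at D15 and holds most E2F matches, and for FANCF, the Fanconi gene with the smallest change by its first probe. Capitals mark the matches, in XRCC3 5 CCAAT boxes, in BRIP1 3 CCAAT boxes and 1 cell cycle homology region, in FANCC 2 E2F elements and 1 cell cycle homology region, and in FANCF 2 CCAAT boxes.
XRCC3 (chr14:103715452-103715701, minus strand): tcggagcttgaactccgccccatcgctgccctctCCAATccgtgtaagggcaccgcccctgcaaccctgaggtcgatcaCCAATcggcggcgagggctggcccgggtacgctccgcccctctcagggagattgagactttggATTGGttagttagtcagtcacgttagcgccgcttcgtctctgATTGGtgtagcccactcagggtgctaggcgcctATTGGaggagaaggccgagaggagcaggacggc
BRIP1 (chr17:61863529-61863778, minus strand): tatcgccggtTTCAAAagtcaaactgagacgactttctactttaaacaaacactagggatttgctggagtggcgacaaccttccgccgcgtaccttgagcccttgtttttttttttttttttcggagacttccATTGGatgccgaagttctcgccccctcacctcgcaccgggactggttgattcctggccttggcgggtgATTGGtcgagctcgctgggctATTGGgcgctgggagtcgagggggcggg
FANCC (chr9:95317710-95317959, minus strand): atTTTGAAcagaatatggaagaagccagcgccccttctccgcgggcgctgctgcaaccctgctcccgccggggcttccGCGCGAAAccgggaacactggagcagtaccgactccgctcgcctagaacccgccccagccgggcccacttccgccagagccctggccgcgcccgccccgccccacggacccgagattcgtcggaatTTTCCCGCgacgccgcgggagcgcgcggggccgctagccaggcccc
FANCF (chr11:22625824-22626073, minus strand): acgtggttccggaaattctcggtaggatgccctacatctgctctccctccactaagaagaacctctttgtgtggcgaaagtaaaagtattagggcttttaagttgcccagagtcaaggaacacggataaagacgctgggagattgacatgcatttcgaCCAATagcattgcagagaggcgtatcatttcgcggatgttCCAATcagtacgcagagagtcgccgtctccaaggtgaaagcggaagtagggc

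From D15 to D30 − DMSO, that is, during 15 further days of culture without DMSO, 0 of the 34 genes passed limma's thresholds in either direction, against 0.0135% of all genes. At an unadjusted p below 0.05 only BRCA1 differed, by 0.38 ± 0.16, against 2.92% of all genes, and the methods' t-test called 0. The median change was -0.08. RAD54L, for example, stayed at 41.5, 58.8, 66.1 and 77.4 units, and FANCD2 at 27.7, 36.2, 40.0 and 31.8 units. The 14 proliferation markers gave 0 calls in limma, also at an unadjusted p below 0.05.

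D30 + DMSO was compared with D30 − DMSO to see which of the genes respond to DMSO. Of the 34 genes, FANCC and RBBP8 fell and 0 rose (limma; also 2 and 0 by the methods' t-test), where 4.23% of all genes fell and 1.74% rose. At an unadjusted p below 0.05, 10 of the 34 genes were lower and 1, MSH6, was higher, against 28.6% of all genes in either direction. The share of the 34 genes was thus near that of all genes. Neither FANCC nor RBBP8 had fallen at D15, and their 95% intervals for D15 against D4 were -0.01 to 0.61 for FANCC and -0.27 to 0.23 for RBBP8.

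FANCC, a subunit of the Fanconi core complex, read 487, 567, 579 and 589 units without DMSO and 181, 249, 217 and 239 units with it. All treated arrays lay below all untreated ones, and it fell by 1.33 ± 0.15 (limma adjusted p = 4.07e-06). RBBP8 read 1082, 1008, 875 and 972 units without DMSO and 379, 460, 437 and 409 units with it, again with no overlap, and fell by 1.22 ± 0.12 (limma adjusted p = 8.19e-07). Within slides 3 and 4, which hold arrays of both conditions, FANCC differed by -1.20 and -1.37 and RBBP8 by -1.37 and -1.20. The same arrays gave the calls of both genes, so these values are a description. Whether the change of a gene with DMSO differs from its change at D15 was not tested.

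Of the 34 genes, 7 were lower on every D30 + DMSO array than on any D30 − DMSO array, and 1 was higher. The share of all genes that separate in this way was not counted. The 7 include FANCC, RBBP8 and, of the genes that had fallen at D15, BRCA1, FANCA and BLM. BRCA1 was lower on every treated array (74.1, 72.3, 58.0 and 55.6 units against 112, 126, 127 and 115 units), by 0.90 ± 0.16 on the log2 scale, and FANCA by 0.87 ± 0.19. Both had an adjusted p below the limit (limma adjusted p = 0.000398 and 0.00341) with a change of less than 2-fold. BLM changed by -1.08 ± 0.31 (limma adjusted p = 0.0185) and passed with the slide as a block (-1.25, limma adjusted p = 0.00428). EXO1 changed by -0.94 ± 0.36 and BRCA2 by -1.06 ± 0.50, and neither passed (limma adjusted p = 0.0768 and 0.17), with BRCA2 not well above background in either condition. In all, 25 of the 34 fitted changes were negative, with a median of -0.25, against 0.03 for all genes. The share of negative changes over all genes was not counted. At this step 0 of 14 proliferation markers passed, with a median of -0.21, and at an unadjusted p below 0.05 3 were lower. Of the 3 stellate or fibroblast markers tested, decorin and lumican fell, by 2.98 and 2.68 on the log2 scale, and both rose again at D34 ± DMSO. The summed signal of that list ranged from 3560 to 8092 units over the D30 − DMSO arrays and from 477 to 855 units over the D30 + DMSO arrays, and PDGFRB was not well above background in either. Whether stellate cells or fibroblasts were present was not tested, nor was the part of these marker changes in the values of FANCC and RBBP8.

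After removal of DMSO, D34 ± DMSO was compared with D30 + DMSO. Of the 34 genes 19 rose and 0 fell (limma; by the methods' t-test 10 and 0), against 5.12% and 1.98% of all genes. The genes that rose were 10 of 14 recombination genes, 7 of 11 Fanconi genes and the kinases CHEK1 and CHEK2, and 0 of the 3 mismatch and base excision genes. BRCA2, counted here, passed the filter on dim signals only through D34 ± DMSO. The median change was 1.41, against -0.04 for all genes. At an unadjusted p below 0.05 23 genes were higher and 0 lower, against 31.4% of all genes in either direction. All 14 proliferation markers rose, with a median of 2.93, and 0 of 8 hepatocyte markers passed in limma (3 lower at an unadjusted p below 0.05). The part of proliferation in the result was not tested.

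BRCA2 read 1.38, 2.98, 0.641 and 3.58 units at D30 + DMSO and 22.5, 49.7, 35.2 and 44.5 units at D34 ± DMSO. Before removal no array was well above background, and after it 4 of 4 were, a rise of at least 5.19-fold (limma adjusted p = 5.4e-06), and BRCA2 did not pass with normexp or by the methods' t-test. The filter on dim signals kept BRCA2 only through its D34 ± DMSO arrays. Its rise and its p-value are therefore partly selected by that filter. RAD51AP1 rose at least 5.73-fold, from -0.683, 9.13, 8.17 and 6.26 units to 43.7, 47.6, 45.9 and 47.8 units (limma adjusted p = 0.00204). The call of RAD51AP1 was lost with normexp, by the methods' t-test and when D30 + DMSO replicate 1 or any single D34 ± DMSO array was left out.

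RAD54L read 26.7, 45.7, 46.8 and 52.8 units at D30 + DMSO and 295, 670, 541 and 434 units at D34 ± DMSO, a rise of 3.48 ± 0.28 on the log2 scale (limma adjusted p = 6.06e-08). BLM and EXO1 rose by 3.38 ± 0.31 and 3.35 ± 0.36, each from a condition with 2 of 4 arrays well above background. BRCA1 rose by 2.64 ± 0.16 and BARD1 by 1.78 ± 0.32. XRCC3, RAD54B and RBBP8 rose by 1.65, 1.41 and 1.01. RBBP8 thus rose by barely more than 2-fold, from 379 to 460 units before to 785 to 918 units after removal, and its call was lost when any 1 of 4 arrays was left out (replicates 1 and 4 of D30 + DMSO, replicates 3 and 4 of D34 ± DMSO).

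Of the Fanconi genes, FANCA read 26.7, 22.6, 22.6 and 18.5 units at D30 + DMSO and 132, 260, 155 and 220 units at D34 ± DMSO. It rose by 3.04 ± 0.19 (limma adjusted p = 7.37e-09). FANCD2 rose from 30.0, 32.1, 30.0 and 27.5 units to 203, 279, 212 and 235 units, by 2.95 ± 0.20, and FANCI by 2.90 ± 0.21. No array overlapped between the conditions in these genes.

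BRIP1 rose by 2.19 ± 0.51, from 9.89, 15.2, 5.43 and 8.35 units with 1 of 4 arrays well above background to 29.6, 53.8, 45.2 and 41.0 units (limma adjusted p = 0.00382), and this call was lost when any of 11 single arrays was left out. FANCG, FANCM and FANCC rose by 1.69, 1.64 and 1.48. FANCB was well above background on 0 of 4 arrays before and 4 of 4 arrays after removal, at least 1.99-fold apart, but did not pass (limma adjusted p = 0.228). FANCB was tested only because its D34 ± DMSO arrays passed the filter on dim signals, so the 4 of 4 was fixed in advance. FANCF, FANCE and FANCL changed by -0.13, 0.24 and 0.45 and did not pass.

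CHEK1 read 55.0, 58.2, 80.5 and 79.1 units at D30 + DMSO and 134, 169, 169 and 260 units at D34 ± DMSO, and rose by 1.40 ± 0.22 (limma adjusted p = 0.000112). CHEK2 read 59.9, 70.1, 87.3 and 108 units before and 162, 194, 154 and 314 units after, and rose by 1.31 ± 0.28 (limma adjusted p = 0.00204). The second probe of CHEK2 changed by 0.69 ± 0.37 (limma adjusted p = 0.222), the only one of 48 gene and comparison pairs with several probes in which the probes differed in call. Leaving out any 1 of 4 arrays (replicates 1 and 2 of D30 + DMSO, replicates 2 and 4 of D34 ± DMSO) also ended the call of CHEK2.

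CLSPN (1.81 ± 0.52), TOPBP1 (0.60 ± 0.13), ATR (0.59 ± 0.17) and ATM (0.66 ± 0.32) had positive changes and did not pass. With the slide as a block CLSPN passed (1.89, limma adjusted p = 0.00173), whereby 20 genes rose. PMS2, UNG and MSH6 changed by 0.03, -0.10 and -0.21. Slides 3 and 4 hold arrays of both conditions, and the 19 genes were higher at D34 ± DMSO within each of them, by 1.02 to 3.89 on slide 3 and by 1.09 to 4.56 on slide 4. These genes were called from the same arrays, so their direction within a slide is no separate support.

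**Figure D3:**
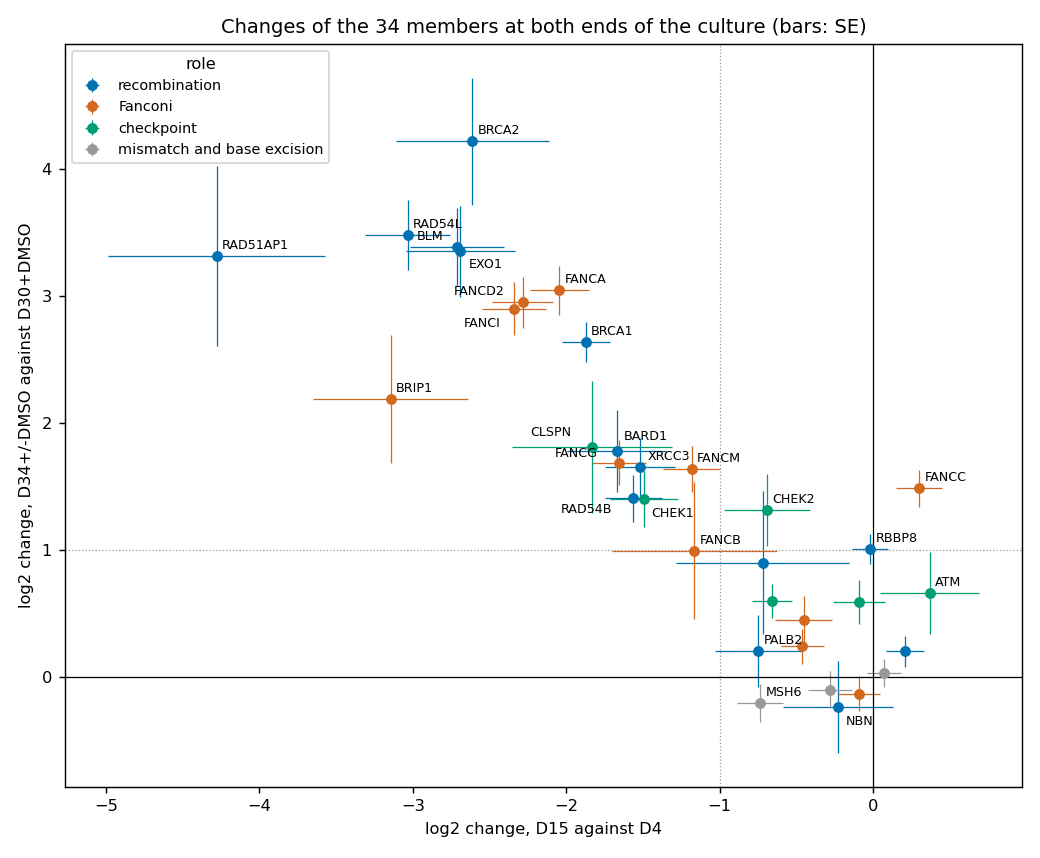
Log2 change of each of the 34 genes from D4 to D15 (horizontal) against that from D30 + DMSO to D34 ± DMSO (vertical), with SE bars and colours by role. The genes run from the upper left, where RAD51AP1, BRCA2 and RAD54L lie, to the origin with the mismatch genes, and FANCC and RBBP8 lie above 1 on the vertical axis without a fall on the horizontal one.

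The comparisons D15 against D4 and D34 ± DMSO against D30 + DMSO share no arrays, although they share slides and the fit. All 16 genes that fell at D15 were among the 19 that rose at D34 ± DMSO (100% of the first and 84.2% of the second list), and the other 3 were CHEK2, FANCC and RBBP8. By its second probe CHEK2 passed in neither comparison, and BRCA2 was tested only through D34 ± DMSO. Over all genes 3.83% fell and 5.12% rose, and their overlap was not counted. All 14 proliferation markers also fell at D15 and rose at D34 ± DMSO. Across the 34 genes the changes had a Pearson r of -0.856 and a Spearman rho of -0.839, as a description across genes that are not independent. The 15 genes that passed in neither comparison were ATM, ATR, CLSPN, FANCB, FANCE, FANCF, FANCL, MSH6, NBN, PALB2, PMS2, RAD50, TOPBP1, UNG and XRCC2.

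The level reached after removal was set against both untreated stages. Against D30 − DMSO, 12 of the 34 genes were higher and 0 lower at D34 ± DMSO (limma; by the methods' t-test 2 and 0), where 1.32% of all genes were higher. They were BRCA2, RAD54L, EXO1, BLM, BRCA1, RAD54B, XRCC3, FANCD2, FANCI, FANCA, FANCG and FANCM, by between 1.23 for FANCM and 3.16 for BRCA2 on the log2 scale. BRCA2 entered the test only because its D34 ± DMSO arrays passed the filter on dim signals. Of the 19 genes that rose against D30 + DMSO, 7 did not pass here. RAD51AP1 (2.72), BRIP1 (2.45) and BARD1 (1.39) changed by more than 2-fold with limma adjusted p = 0.0316, 0.00608 and 0.014, and CHEK1, CHEK2, FANCC and RBBP8 changed by 0.81, 0.69, 0.15 and -0.21. BARD1 passed with the slide as a block (limma adjusted p = 0.000326), whereby 13 genes were higher. The last comparison shares the D34 ± DMSO arrays with the one before.

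Against D4, 0 of the 34 genes passed limma's thresholds at D34 ± DMSO, where 8.58% of all genes did. At an unadjusted p below 0.05 5 genes were lower and 1 higher, against 34.4% of all genes in either direction, and the methods' t-test called 0. The changes ran from -0.60 for MSH6 to 0.66 for ATM, with a median of -0.13. RAD54L differed by -0.13 (95% interval -0.71 to 0.45), FANCA by -0.04 (-0.45 to 0.37) and BRCA1 by 0.24 (-0.08 to 0.57). The interval of RAD51AP1 reached from -1.57 to 1.41 and that of BRCA2 from -0.41 to 1.69, so that differences of 2-fold in these dim genes were not detectable. FANCC was higher on every D34 ± DMSO array than on any D4 array, by 0.61 ± 0.15 (limma adjusted p = 0.00486), and FANCE, FANCF and MSH6 were lower on every array, by 0.56, 0.50 and 0.60, all less than 2-fold. The second probe of FANCF changed by -0.07 ± 0.11 in this comparison. In the same comparison all 8 hepatocyte markers were higher at D34 ± DMSO and 0 of the 14 proliferation markers passed in limma (2 lower and 1 higher at an unadjusted p below 0.05).

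**Figure D4:**
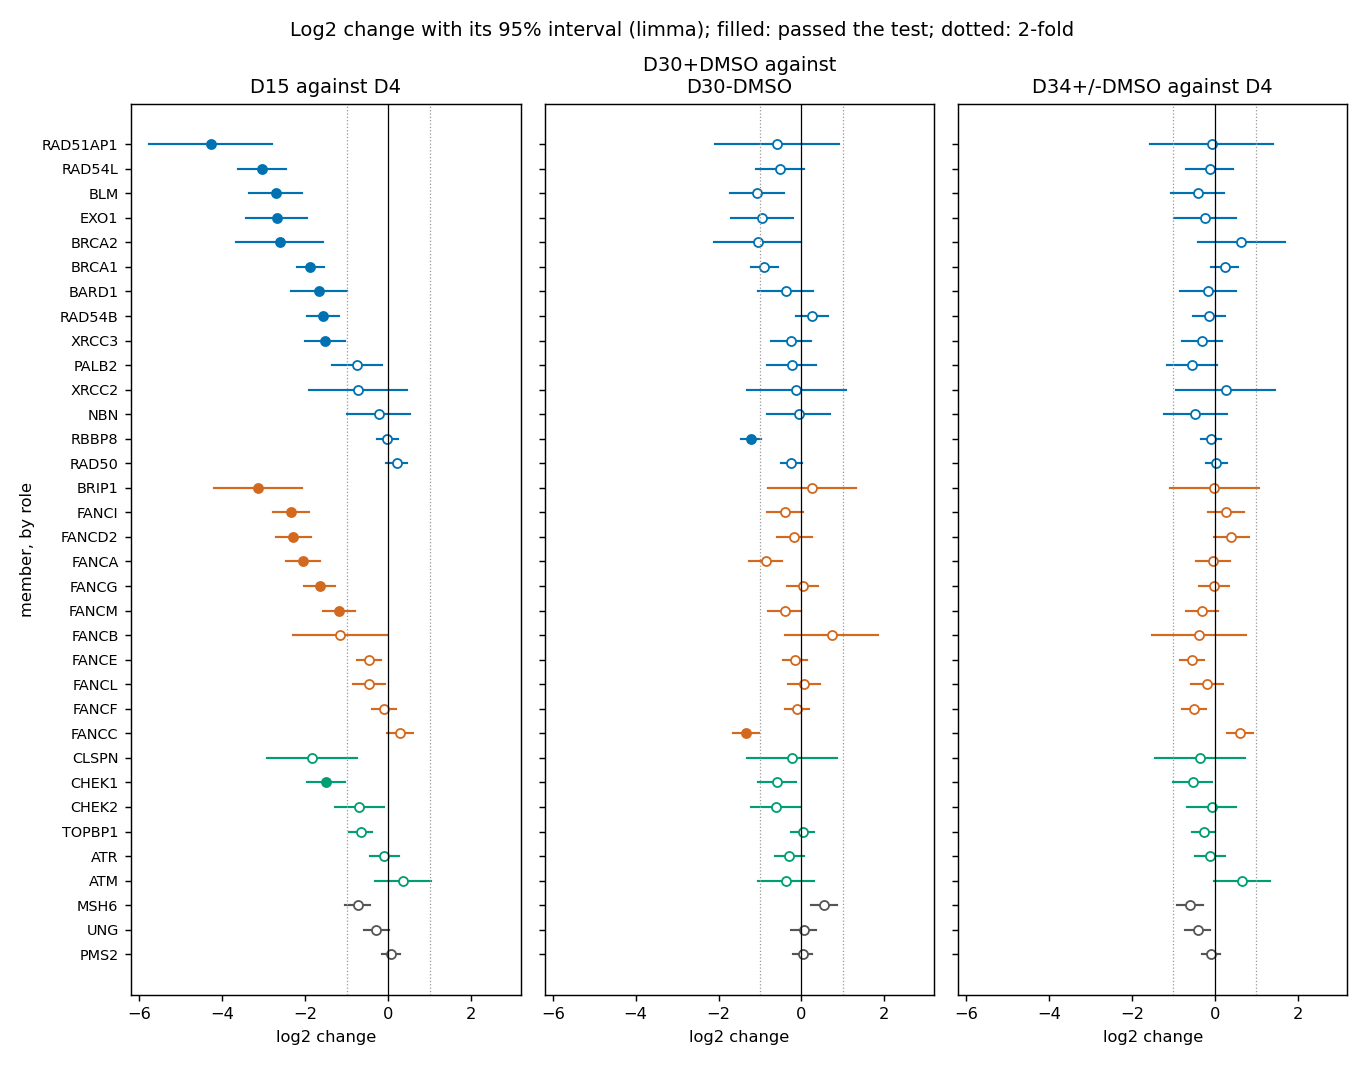
Log2 change of each gene with its 95% interval in 3 comparisons, D15 against D4, D30 + DMSO against D30 − DMSO and D34 ± DMSO against D4, with filled points for genes that passed the thresholds and dotted lines at 2-fold. In the left panel 16 points are filled, in the middle panel those of RBBP8 and FANCC, and in the right panel none.

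Over all 5 conditions, limma's moderated F-test with more than 3-fold between the highest and lowest mean (Bonferroni-adjusted p below 0.001) called 10 of the 34 genes, against 5.37% of all genes. These were BRCA1, RAD54L, RAD54B, BLM, EXO1, FANCA, FANCD2, FANCG, FANCI and FANCM, with ranges between 3.33-fold for FANCG and 13.9-fold for BLM. D4 gave the highest condition mean in 24 of the 34 genes and D34 ± DMSO in 7, and D30 + DMSO gave the lowest in 21. The same order was not counted over all genes.

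The other genes of these pathways were counted from lists that do not hold the 34 genes. Of 24 tested genes of recombination and the Fanconi pathway 5 fell at D15, and 6 rose at D34 ± DMSO. RMI2, a partner of BLM, fell by 2.03 ± 0.24 and UBE2T, the ubiquitin-conjugating enzyme of the core complex, by 2.01 ± 0.19 (limma adjusted p = 4.21e-06 and 1.94e-07), and they rose by 2.38 ± 0.24 and 1.93 ± 0.19. Of 19 checkpoint genes 8 fell and 8 rose. CDC25C, a phosphatase that checkpoint kinases inhibit, fell by 3.00 ± 0.49 and DSCC1, a clamp-loader subunit, by 2.07 ± 0.27, and at D34 ± DMSO CDC25C rose by 2.94 ± 0.49 and CHTF18, another clamp-loader subunit, by 1.95 ± 0.23.

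The remaining repair pathways were counted in the same way, beside 3.83% of all genes lower at D15 and 5.12% higher at D34 ± DMSO, and differences between the lists were not tested. Of 10 end joining genes limma called 0 at D15 (1 lower and 2 higher at an unadjusted p below 0.05), and 1 rose at D34 ± DMSO, the nuclease gene DCLRE1C by 1.02 ± 0.18. Of 18 base excision genes 2 fell and 1 rose. NEIL3, a glycosylase, was well above background on 4 of 4 arrays at D4 and D34 ± DMSO and on none at D15 or D30 + DMSO. It was at least 8.58-fold lower at D15 and at least 10.2-fold higher at D34 ± DMSO. NEIL3 passed the filter on dim signals only through D4 and D34 ± DMSO, where it was high, so its calls are partly selected by that filter. The thymine glycosylase TDG fell by 1.03 ± 0.16 at D15. Of 17 nucleotide excision genes limma called 0 at D15 (3 lower at an unadjusted p below 0.05), and 1 rose at D34 ± DMSO, DDB2, a sensor of ultraviolet damage, by 1.38 ± 0.11. The 3 other mismatch genes gave 0 calls in limma, also at an unadjusted p below 0.05, in both comparisons.

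Among 18 p53 target genes, 3 fell at D15, TIGAR by 1.15 ± 0.17, PLK3 by 1.13 ± 0.20 and GADD45A by 1.12 ± 0.18, and 2 rose at D34 ± DMSO, MDM2 by 1.22 ± 0.16 and TIGAR by 1.15 ± 0.17. The median change of the list was -0.62 at D15 and 0.36 at D34 ± DMSO. At an unadjusted p below 0.05, 12 were lower and 0 higher at D15, against 32.8% of all genes in either direction. At D34 ± DMSO 9 were higher and 2 lower, against 31.4%. CDK1 and BUB1 led the proliferation markers at D15, lower by 3.30 ± 0.29 and 3.43 ± 0.45, and CDK1 and TOP2A led them at D34 ± DMSO, higher by 3.88 ± 0.29 and 3.86 ± 0.66.

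**Figure D5:**
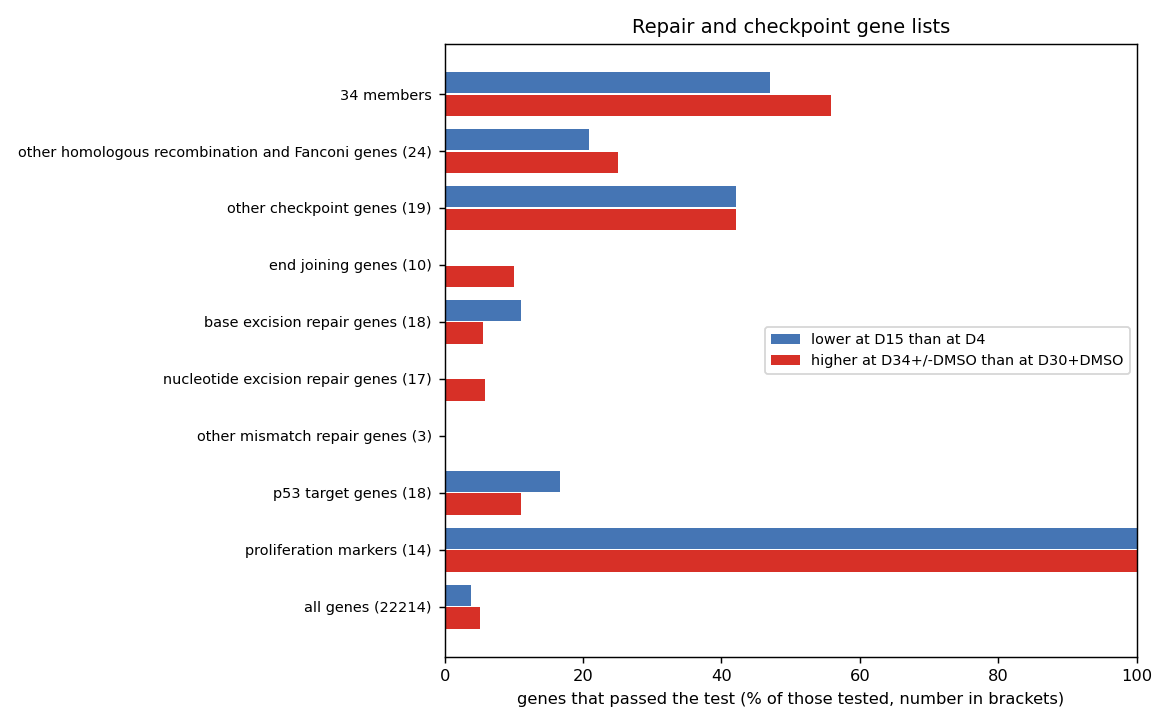
Share of the tested genes of each list that fell from D4 to D15 (blue) and rose from D30 + DMSO to D34 ± DMSO (red), in percent, beside the 34 genes (top) and all genes tested (bottom). The shares reach 42.1% in the other checkpoint genes and 100% in the proliferation markers, and lie at or below 11.1% in end joining, base excision, nucleotide excision and mismatch repair.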

How the data were processed

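Cy3-labelled RNA of the 20 HepaRG samples was hybridised by the authors to 1-color Agilent 8x60K arrays, and the deposited scanner files hold background-subtracted processed intensities that are not scaled between arrays. The submitters' processing notes name Agilent Feature Extraction 10.7.3.1, and per the file headers version 10.7.1.1 was used. The authors' table of log2 values served as an alternative, and per the file headers 0 and 1 flags mark spots well above background.

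Here, intensities were scaled to a common 75th percentile (384 units), set to at least 1 unit and log2-transformed. Of 42405 probes, 26531 passed the filter, and the probe of highest mean stood for each of 22214 genes, named through RefSeq accessions. All 20 arrays entered a limma 3.58.1 fit (R 4.3.3, lmFit and eBayes) with 1 term per condition. Scripts were tested on simulated data, and tables used pandas 2.3.3. A lower bound ("at least") compares a group with the dimmest signals well above background on the arrays of the other. Genes given with all arrays were the 3 most changed called members of each role, the least changed member of each role at D15 and those whose probes differed in call, and of the other lists the 2 most changed called genes. A few others, such as BRCA1 and FANCC, were chosen after their values were seen. The 34 genes, the lists and the tests were chosen with earlier results of these data known. Array replicates correlated at 0.955 to 0.992, and 4 arrays per condition limit the precision. The labels do not say which arrays came from which culture, so p-values measure the spread between arrays. Alternatives covered scaling, background, filter, floor, probe, block, test, thresholds and each array left out.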

Additional observations from a re-analysis of the deposited data

Results flagged for a closer look

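In 12 of 170 groups of 4 arrays (34 genes in 5 conditions, 7.06%), 1 array lay farther from the others than Dixon's 95% limit for 4 values allows, and chance gives about 1 in 20. Values are log2 signals relative to the 75th percentile of the array, each beside the median of the other 3 arrays.

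Among the recombination genes, RAD51AP1 read -7.15 in D30 − DMSO replicate 2 (others -5.33) and -8.58 in D30 + DMSO replicate 1 (others -5.55), both where the gene was not well above background, and the second value is the floor of 1 unit. RAD54B read -3.24 in D30 + DMSO replicate 1 (others -2.79). XRCC2 read -2.2 in D4 replicate 4 (others -1.19) and -3.0 in D30 − DMSO replicate 4 (others -1.6), both from slide 4. RBBP8 read 1.34 in D4 replicate 4 (others 1.2).

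Among the Fanconi genes, FANCB read -8.58 in D30 − DMSO replicate 2 (others -5.33), which is again the floor. FANCD2 read -3.01 in D15 replicate 2 (others -3.55). FANCG and FANCI were both lowest in D34 ± DMSO replicate 1, at 1.16 (others 1.75) and 0.802 (others 1.24). In the checkpoint group, ATM read -1.09 in D30 − DMSO replicate 4 (others -2.15) and CHEK2 read -0.94 in D15 replicate 4 (others -1.82), both from slide 4.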

How the results depend on the processing

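Of 49 calls of single genes, 0 reversed under 36 alternatives, 21 were kept in all and 28 were lost in at least 1, 24 of them by the methods' t-test and 15 with normexp background correction. Against D30 + DMSO, D34 ± DMSO gave 12 genes with normexp and 10 with the methods' t-test instead of 19. Against D30 − DMSO, the methods' t-test gave 2 instead of 12. The F-test gave 6 instead of 10 with normexp. Without a minimum fold, 4 genes instead of 2 fell with DMSO, and FANCC (0.61) alone differed between D34 ± DMSO and D4. The cause of the losses with normexp and the t-test was not tested. Leaving out 1 array gave 16 to 17 genes for D15 against D4, 0 for D30 − DMSO against D15, 2 with DMSO, 12 to 13 for D34 ± DMSO against D30 − DMSO, 0 against D4 and 9 to 11 in the F-test. D34 ± DMSO against D30 + DMSO ranged from 15 to 19, with 15 without D30 + DMSO replicate 1 or D34 ± DMSO replicate 4. Arrays of the same slide deviated together in 44 of 44 pairs (correlation above 0.1, median 0.387), against 26 of 116 pairs on other slides (median -0.179). The main fit has no slide term. With the slide as a block the 6 comparisons gave 17, 0, 3, 20, 13 and 0 genes and the F-test 11. Arrays with the same replicate number deviated together in 27 of 40 pairs (correlation above 0.1, median 0.275), against 43 of 120 pairs with other numbers (median -0.169). Since not every pair did and the labels tie the numbers to no culture, they were not used as pairs. With a replicate block the 6 comparisons gave 17, 0, 3, 20, 13 and 0 genes and the F-test 13. Scan session as a block, chosen after seeing the data, gave 17, 0, 3, 20, 14 and 0 genes and 13 in the F-test. Signals near background limit RAD51AP1, BRCA2, BRIP1, FANCB and CLSPN.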

Other observations

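Of 18 p53 target genes, PLK3, a stress-responsive kinase, was lower at D34 ± DMSO than at D4, by -1.32 ± 0.20 (SE) on the log2 scale (limma adjusted p = 6.2e-05). Over all genes, 8.58% passed in this comparison in either direction. The median change of the list was -0.42, and at an unadjusted p below 0.05 9 genes were lower and 1 higher, against 34.4% of all genes in either direction. Of the 24 other recombination and Fanconi genes, UBE2T, RMI2 and the ubiquitin ligase RFWD3 were higher at D34 ± DMSO than at D30 − DMSO, by 1.99, 1.71 and 1.13, and of the 19 other checkpoint genes 7 were, against 1.32% of all genes. These genes were named after their values were seen. The 14 proliferation markers gave 11 higher in that comparison, with a median change of 2.55.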
